A study of Mus musculus with 10 samples.

Results

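Methionine and one-carbon metabolism in the liver was followed through 9 genes, Mat1a, Mat2a, Gnmt, Bhmt, Ahcy, Cbs, Cth, Pemt and Nnmt. They were chosen as genes of this pathway, by symbol, with earlier results of these data known, and each symbol matched 1 of the 55421 gene identifiers in the table of read counts. RNA came from whole livers of 10 male mice and was measured by poly(A) RNA-seq. The H3.3 KO group held 4 mice whose H3f3a and H3f3b genes, which both encode the histone variant H3.3, were floxed (H3f3afl/fl_H3f3bfl/fl, C57BL/6). They received AAV8 Tbg-Cre, an adeno-associated virus that carries Cre recombinase under the hepatocyte promoter Tbg. The WT Cre controls were 3 wildtype mice given the same virus, and the MCS controls were 3 mice of the floxed genotype given AAV8 Tbg-MCS, a vector without Cre. The virus was given at 6 months of age in every group, and livers were collected 3 weeks after it. For the floxed animals the genotype field reads HIRA fl/fl, but their titles give H3f3a and H3f3b, and the groups follow the titles.

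The deletion was limited to hepatocytes by the promoter, so the RNA of the other liver cells came from cells without the deletion. In whole livers, fewer cells of a type and less RNA per cell cannot be told apart. H3f3a stood at 17.4 ± 1.66 CPM (SD, n = 4; counts scaled to library size) in KO and at 62.1 ± 1.58 (n = 6) in the controls, and H3f3b at 50.5 ± 7.40 and 160 ± 24.05, so that the KO libraries held 28.1% and 31.6% of the control means. Total counts ran from 14998426 in KO 1 to 26096141. Columns of the control samples were matched to the kind of control by number. The values for 1 kind of control rest on that match, whereas those of KO against all 6 controls do not. The label of liver tissue held, since all 9 hepatocyte markers that were matched had counts in every library. No source states which livers were processed together. The p-values set a difference between groups against the spread between these livers. They cannot tell a difference in processing between groups from one between the groups themselves.

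Methionine is turned into S-adenosylmethionine (SAM), the methyl donor of most methylation reactions, histone methylation included. Mat1a encodes the SAM synthetase of the adult hepatocyte, and Mat2a the form that other cells, fetal liver and dividing hepatocytes use. After the methyl group is given away, S-adenosylhomocysteine is left, and Ahcy encodes the enzyme that splits it to homocysteine. Homocysteine is either methylated again to methionine, in liver partly with betaine by the enzyme of Bhmt, or passed by those of Cbs and Cth to cysteine. Gnmt, Pemt and Nnmt encode enzymes that use SAM in hepatocytes to methylate glycine, phosphatidylethanolamine and nicotinamide. A lower Mat1a with a higher Mat2a is a well-known mark of dedifferentiated hepatocytes and of liver cancer, which is why the balance of this pair was measured.

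In the genome build mm10, Mat1a (ENSMUSG00000037798.7) lies on chromosome 14 at 41105035 to 41124412 on the plus strand, and the other 8 genes lie on minus strands. Mat2a lies on chromosome 6 at 72432799 to 72439558, Ahcy on chromosome 2 at 155059310 to 155074497 and Pemt on chromosome 11 at 59970614 to 60046489. Gnmt lies on chromosome 17 at 46725664 to 46729168, Nnmt on chromosome 9 at 48591877 to 48605153 and Bhmt on chromosome 13 at 93616675 to 93637961. Cbs lies on chromosome 17 at 31608894 to 31637238 and Cth on chromosome 3 at 157894248 to 157925077. In the annotation, Mat2a, Gnmt, Bhmt and Ahcy each overlap a noncoding or predicted gene on the other strand (Particl, Gm26904, Gm15622 and Gm45609), and Cth overlaps Gm43314 on its own strand. Whether counting used the strand was not stated, so reads of these 5 genes and of their partners may be shared. Reads of Bhmt may also be shared with its neighbour Bhmt2 and with the pseudogene Bhmt-ps1.

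The promoter windows of Ahcy, Pemt and Mat2a are printed, because these genes had lower values in KO at an adjusted p under 0.05 in the main test (edgeR). For Mat2a this held against the MCS controls alone. Each window runs from 250 bases before to 50 bases after a RefSeq start (GRCm38.p6, the assembly of mm10) on the minus strand, and RefSeq windows were at hand for 6 of the 9 genes, not for Mat1a, Cth and Nnmt. Capitals mark matches on either strand to short letter patterns of known promoter elements. The TATA box, TATAAA, is held by 13.6% of all 32851 windows. The CCAAT box, CCAAT, is held by 37.4%. The GC box, GGGCGG, is held by 35.7%, and a pair of its matches overlaps in the window of Mat2a. The core pattern of nuclear receptors, AGGTCA, is held by 16.3%.
Ahcy, chr2:155074448-155074747: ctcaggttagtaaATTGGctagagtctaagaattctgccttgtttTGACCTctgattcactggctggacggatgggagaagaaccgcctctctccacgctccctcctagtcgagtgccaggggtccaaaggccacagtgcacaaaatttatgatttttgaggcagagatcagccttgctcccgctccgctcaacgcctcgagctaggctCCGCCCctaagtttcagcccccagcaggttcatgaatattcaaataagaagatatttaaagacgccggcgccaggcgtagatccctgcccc
Pemt, chr11:60040139-60040438, the start farther upstream of the pair listed: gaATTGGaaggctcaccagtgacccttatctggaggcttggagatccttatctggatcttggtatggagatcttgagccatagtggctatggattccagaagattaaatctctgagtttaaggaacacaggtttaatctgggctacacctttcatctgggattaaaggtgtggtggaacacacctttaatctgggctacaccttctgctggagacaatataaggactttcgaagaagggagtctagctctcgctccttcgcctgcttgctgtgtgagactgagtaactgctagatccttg
Mat2a, chr6:72439507-72439806: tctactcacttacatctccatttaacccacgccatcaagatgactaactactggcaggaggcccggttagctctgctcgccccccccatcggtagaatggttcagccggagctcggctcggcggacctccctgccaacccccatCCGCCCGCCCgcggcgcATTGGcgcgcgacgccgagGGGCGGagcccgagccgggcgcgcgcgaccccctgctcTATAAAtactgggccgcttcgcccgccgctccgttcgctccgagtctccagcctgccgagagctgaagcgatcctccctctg
The windows differ in make-up, with 13 CpG dinucleotides in that of Ahcy, 3 in that of Pemt and 34 in that of Mat2a, where the median over all windows was 7. The printed windows of Ahcy and Pemt, which both fell, share among these patterns only the CCAAT box, which the window of Mat2a holds too. The windows of Gnmt, Bhmt and Cbs, which are not printed, also hold it, so it does not set the lower genes apart. The other window of Pemt holds none of the patterns. A match of letters is a description of the window and not a bound site, and no binding data were analysed here.

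KO was first compared with all 6 controls to ask how the genes respond to the loss of H3.3. Pemt and Ahcy fell, by 0.87 and 0.84 on the log2 scale, to 54.7% and 55.9% of the control means. The other 7 genes did not pass the test, including Mat1a (log2 fold change 0.045), Gnmt (0.11) and Cbs (−0.035). Thus 2 of 9 genes passed at an adjusted p under 0.05 (edgeR quasi-likelihood test), both lower, and none had in addition an absolute log2 fold change over 1. Among all 22449 genes tested, 36.3% passed, 16.6% with lower values in KO, and 18.7% passed with a change of that size. The share of the 9 genes that passed was thus not above that of all genes. Ranges of KO and the controls did not overlap for the same 2 genes, as for 12.0% of all genes in the lower direction. The median log2 fold change of the 9 genes was −0.035, and that of all genes −0.0030.

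**Figure D1:**
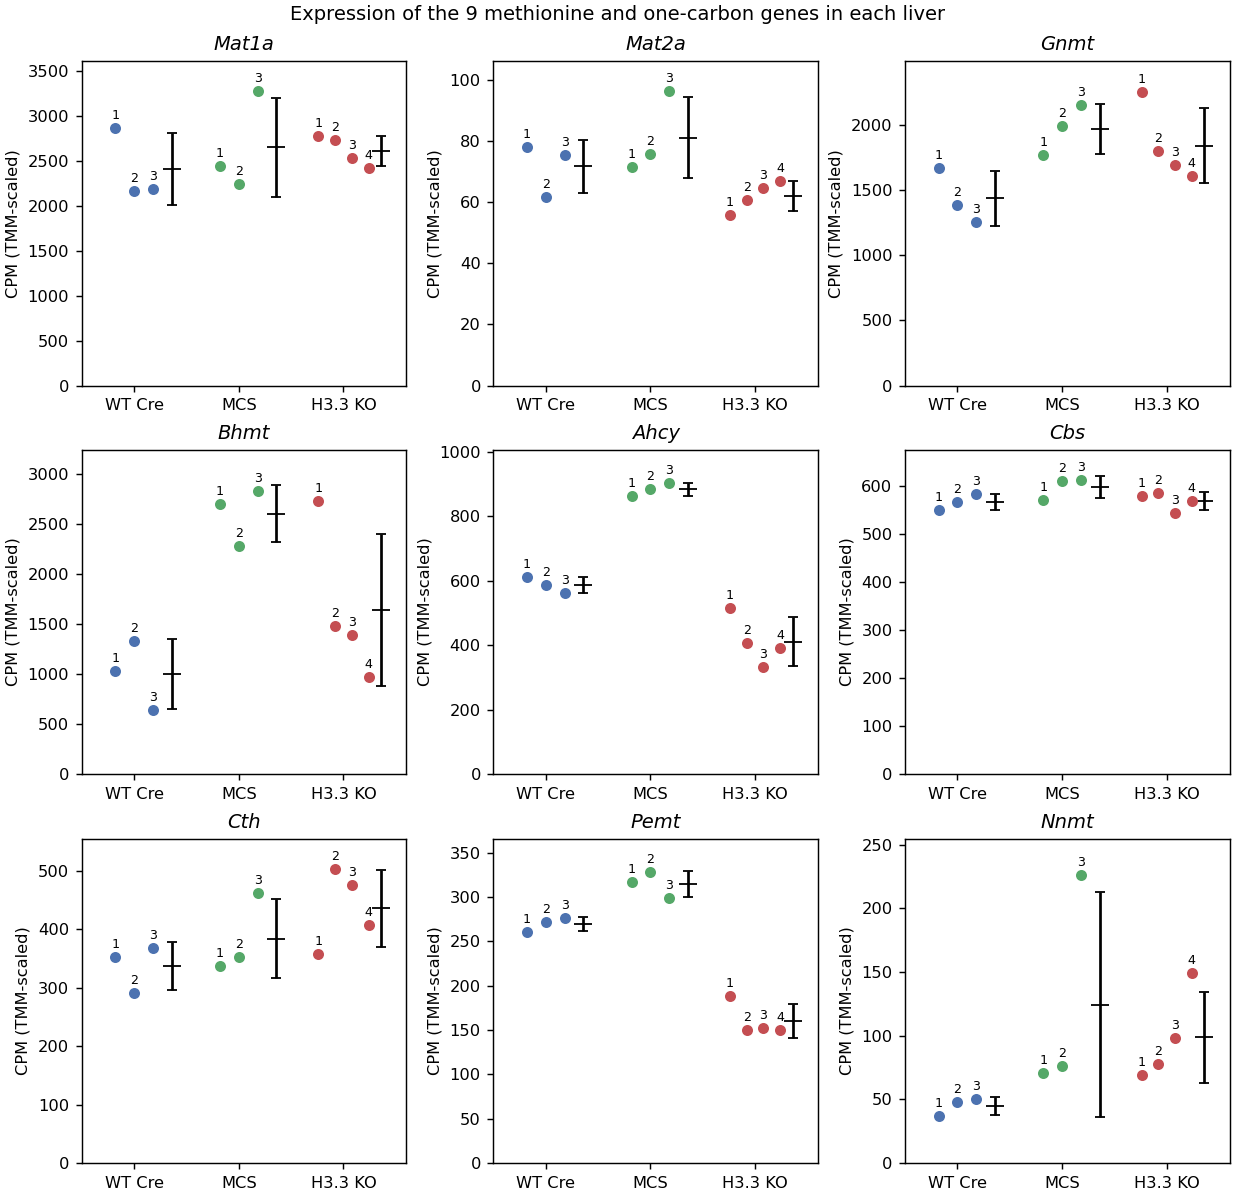
Expression of the 9 genes in each liver, in CPM on linear axes from 0, with livers of a group numbered by replicate and bars at mean ± SD (WT Cre n = 3, MCS n = 3, H3.3 KO n = 4). All KO livers lie below all controls for Ahcy and Pemt, all WT Cre livers lie below all MCS livers for Gnmt, Bhmt, Ahcy, Pemt and Nnmt, none of which passed the edgeR test between these controls, and Nnmt has 1 high liver, MCS 3 at 226.

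Between genes, levels were compared as CPM per kilobase of exon. In the controls Gnmt was highest at 1412 ± 284 (SD, n = 6), followed by Mat1a at 729 ± 130, Bhmt at 313 ± 160, Ahcy at 262 ± 58.3, Pemt at 139 ± 12.7, Cth at 129 ± 20.1, Cbs at 77.8 ± 3.32, Nnmt at 53.6 ± 45.1 and Mat2a at 17.0 ± 2.52. Neighbours in this order whose control ranges overlapped were Bhmt and Ahcy, Pemt and Cth, and Cbs and Nnmt. In KO, Gnmt (1525 ± 238, n = 4), Mat1a (752 ± 48.1) and Bhmt (285 ± 132) kept the first places and Mat2a (13.8 ± 1.10) the last. On this scale Ahcy at 146 ± 26.9 came below Cth at 156 ± 23.7. Pemt at 76.0 ± 8.97 reached the level of Cbs at 75.9 ± 2.42, above Nnmt at 62.6 ± 22.8. The order depends on the measure, and the place of Cbs was higher in the FPKM values of the authors. There Cbs had 251 to 321 in KO, above Pemt at 164 to 203. In the controls Cbs had 202 to 236 FPKM, above Cth at 141 to 186. The 9 genes together held 0.614% to 0.930% of the counts in the controls and 0.748% to 0.974% in KO.

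For SAM synthesis, no fall was called in the RNA of Mat1a, the gene of the hepatocyte enzyme. Mat1a had 2865, 2164 and 2186 CPM in WT Cre controls 1 to 3, 2434, 2238 and 3274 in MCS controls 1 to 3, and 2768, 2723, 2525 and 2414 in KO 1 to 4. The KO livers lay within the control range, with less spread. Mat1a had a log2 fold change of 0.045 ± 0.140 (SE, adjusted p = 0.833) against all controls, 0.12 (adjusted p = 0.623) against WT Cre and −0.023 (adjusted p = 0.932) against MCS. Without MCS 3, the liver with the most Mat1a, the value against MCS was 0.16 (adjusted p = 0.471), and with scaling by library size alone it was 0.23 (adjusted p = 0.202).

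Mat2a had 77.8, 61.6 and 75.5 CPM in the WT Cre controls, 71.4, 75.6 and 96.2 in the MCS controls and 55.6, 60.5, 64.5 and 66.9 in KO. All KO livers lay below the MCS controls, whereas KO 3 and KO 4 lay above WT Cre 2. For Mat2a the log2 fold change was −0.30 ± 0.116 (SE, adjusted p = 0.0572) against all controls and −0.21 (adjusted p = 0.252) against WT Cre. Against MCS Mat2a fell by 0.39 (adjusted p = 0.0369). The test against all controls passed without WT Cre 2 (−0.36, adjusted p = 0.0274) and on FPKM with either pseudocount (limma, −0.30 and −0.31, adjusted p = 0.0132 and 0.0134). The call against MCS was lost without MCS 3, the liver with the most Mat2a (−0.25, adjusted p = 0.160), and, at values of −0.44 to −0.36, also without WT Cre 3, MCS 2, KO 2 or KO 3 (adjusted p from 0.0575 to 0.0914). With the size factors of DESeq2 in edgeR it was −0.37 (adjusted p = 0.0515). The value against MCS was −0.13 (adjusted p = 0.483) with scaling by library size alone.

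The balance of both synthetases within a liver does not depend on library scaling. The ratio of Mat1a to Mat2a, in counts per kilobase of exon, was 47.6, 45.4 and 37.5 in the WT Cre controls, 44.1, 38.3 and 44.0 in the MCS controls and 64.3, 58.2, 50.6 and 46.7 in KO. All KO livers lay above the MCS controls, and KO 4 lay just below WT Cre 1. The ratio was 1.28-fold higher in KO than in all controls (difference of mean log2 ratios 0.35, two-sided exact permutation test, p = 0.00952, adjusted over the 4 comparisons p = 0.0381), where the smallest p of 210 splits is 0.00476. It was 1.26-fold higher against WT Cre (exact permutation p = 0.0857, adjusted p = 0.114) and 1.30-fold higher against MCS (p = 0.0571, adjusted p = 0.114), with 0.0286 the smallest p of 35 splits. Both kinds of control differed by 0.042 (exact permutation p = 0.600, with 0.1 the smallest p of 20 splits). With the FPKM values of the authors, the ratios were lower, 14.8 to 24.2 among controls but 26.5 to 30.5 among KO livers, so that the groups did not overlap.

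**Figure D2:**
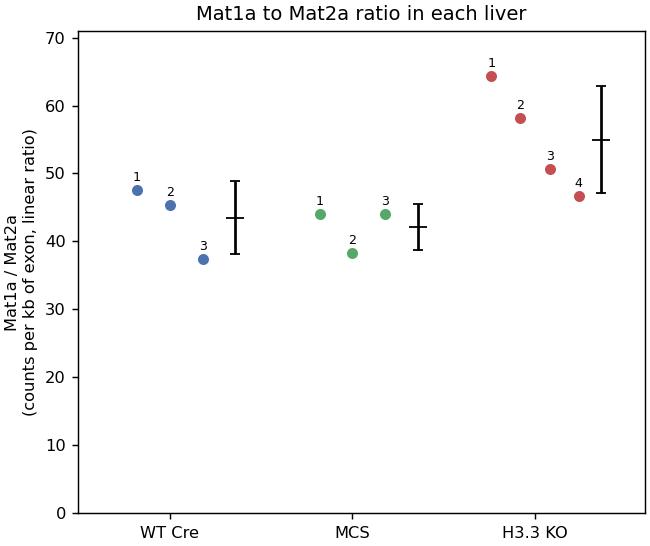
Ratio of Mat1a to Mat2a in each liver, from counts per kilobase of exon on a linear axis from 0, with bars at mean ± SD (WT Cre n = 3, MCS n = 3, H3.3 KO n = 4) and livers numbered by replicate. KO livers lie between 46.7 and 64.3 and the controls between 37.5 and 47.6.

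The 3 genes for SAM-using enzymes differed from each other. Pemt, whose product makes phosphatidylcholine from phosphatidylethanolamine in the liver, had 261, 272 and 276 CPM in the WT Cre controls, 317, 328 and 299 in the MCS controls and 188, 150, 152 and 149 in KO. Every KO liver was below every control, and KO 1 was nearest to them. Pemt fell by 0.87 ± 0.112 (SE, log2, adjusted p = 8.38e-05, lower in 4 of 4 KO livers) against all controls. It fell by 0.75 (adjusted p = 0.000521) against WT Cre and by 0.98 (adjusted p = 8.04e-05) against MCS, and WT Cre and MCS differed by −0.22 (adjusted p = 0.557).

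Gnmt, which takes up excess SAM by making sarcosine, had 1668, 1384 and 1257 CPM in the WT Cre controls, 1771, 1989 and 2150 in the MCS controls and 2254, 1798, 1693 and 1609 in KO. The WT Cre controls were the lowest group, and KO overlapped both kinds of control. Gnmt had a log2 fold change of 0.11 ± 0.164 (SE, adjusted p = 0.642) against all controls, 0.36 (adjusted p = 0.0986) against WT Cre and −0.10 (adjusted p = 0.656) against MCS. Against WT Cre the test passed in 3 of 18 alternatives, none of them with a library left out. With scaling by library size alone this value was 0.46 (adjusted p = 0.0157). Without KO 1, the liver with the most Gnmt, the value against all controls was −0.0026 (adjusted p = 0.992).

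Nnmt, which makes methylnicotinamide, had 36.6, 47.5 and 50.1 CPM in the WT Cre controls, 70.5, 75.9 and 226 in the MCS controls and 69.1, 77.9, 97.9 and 149 in KO. MCS 3 was the highest of all livers and KO 4 the next. All KO livers lay above all WT Cre controls, while KO overlapped MCS. For Nnmt the log2 fold change was 0.22 ± 0.521 (SE, adjusted p = 0.776) against all controls, 1.14 (adjusted p = 0.0916) against WT Cre and −0.33 (adjusted p = 0.607) against MCS. Without MCS 3 the test passed against all controls (0.81, adjusted p = 0.0376) and against WT Cre (1.14, adjusted p = 0.00839). DESeq2 also called it against WT Cre (1.16, adjusted p = 0.0150). Without KO 4 the value against all controls was −0.048 (adjusted p = 0.962).

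The gene for homocysteine release showed the other clear difference in RNA. Ahcy had 611, 587 and 562 CPM in the WT Cre controls, 863, 884 and 902 in the MCS controls and 514, 406, 333 and 390 in KO. The 3 groups formed separate ranges, with MCS highest and KO lowest, and KO 1 was nearest to the controls. Ahcy fell by 0.84 ± 0.179 (SE, log2, adjusted p = 0.00277, lower in 4 of 4 KO livers) against all controls. It fell by 0.51 ± 0.138 (adjusted p = 0.0150) against WT Cre, a call that was lost without WT Cre 1 (−0.48, adjusted p = 0.0593), and by 1.10 ± 0.137 (adjusted p = 0.000133) against MCS. WT Cre and MCS controls differed by −0.59 ± 0.148 (adjusted p = 0.0993 by edgeR, 0.00954 by DESeq2, and 0.00756 by edgeR without KO 1), so the size of the fall depends on the control.

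Bhmt varied widely between the controls. It had 1028, 1330 and 637 CPM in the WT Cre controls, 2699, 2281 and 2824 in the MCS controls and 2732, 1475, 1392 and 973 in KO. KO 1 lay among the MCS controls, KO 2 and KO 3 between both kinds of control, and KO 4 among the WT Cre controls. In KO Bhmt had a log2 fold change of −0.13 ± 0.445 (SE, adjusted p = 0.849) against all controls, 0.72 (adjusted p = 0.142) against WT Cre and −0.66 (adjusted p = 0.155) against MCS. Without KO 1 the value against MCS passed (−1.02, adjusted p = 0.0123). Between WT Cre and MCS it was −1.38 ± 0.363 (adjusted p = 0.136 by edgeR, 0.00517 by DESeq2, and 0.0311 by edgeR without KO 1).

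The transsulfuration genes Cbs and Cth showed little change on counts. Cbs, which joins homocysteine with serine, had 550 to 583 CPM in the WT Cre controls, 571 to 612 in the MCS controls and 543 to 584 in KO, the least spread of the 9 genes relative to the level. Its log2 fold change was −0.035 ± 0.0917 (SE, adjusted p = 0.804) against all controls. On the authors' FPKM values the same comparison gave a rise of 0.34 (limma on log2(FPKM + 1), adjusted p = 0.0152), and scaling by library size alone gave 0.14 (adjusted p = 0.237), so the sign of Cbs depends on the scaling. Cth, which releases cysteine, had 353, 291 and 369 CPM in the WT Cre controls, 338, 354 and 462 in the MCS controls and 357, 504, 475 and 408 in KO. KO 2 and KO 3 were above every control and KO 1 was not. The log2 fold change of Cth was 0.27 ± 0.138 (SE, adjusted p = 0.142), and the test passed in 5 of 18 alternatives. These were without MCS 3 (0.36, adjusted p = 0.0421), without KO 1 (0.36, adjusted p = 0.0449), with scaling by library size alone (0.46, adjusted p = 0.0129) and on FPKM with either pseudocount (limma, 0.43 with both, adjusted p = 0.0201 and 0.0188). Against WT Cre, Cth passed without KO 1 (0.45, adjusted p = 0.0217), by library size alone (0.48, adjusted p = 0.0332) and on log2(FPKM + 0.1) (limma, 0.45, adjusted p = 0.0479), and against MCS by library size alone (0.44, adjusted p = 0.0414).

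**Figure D3:**
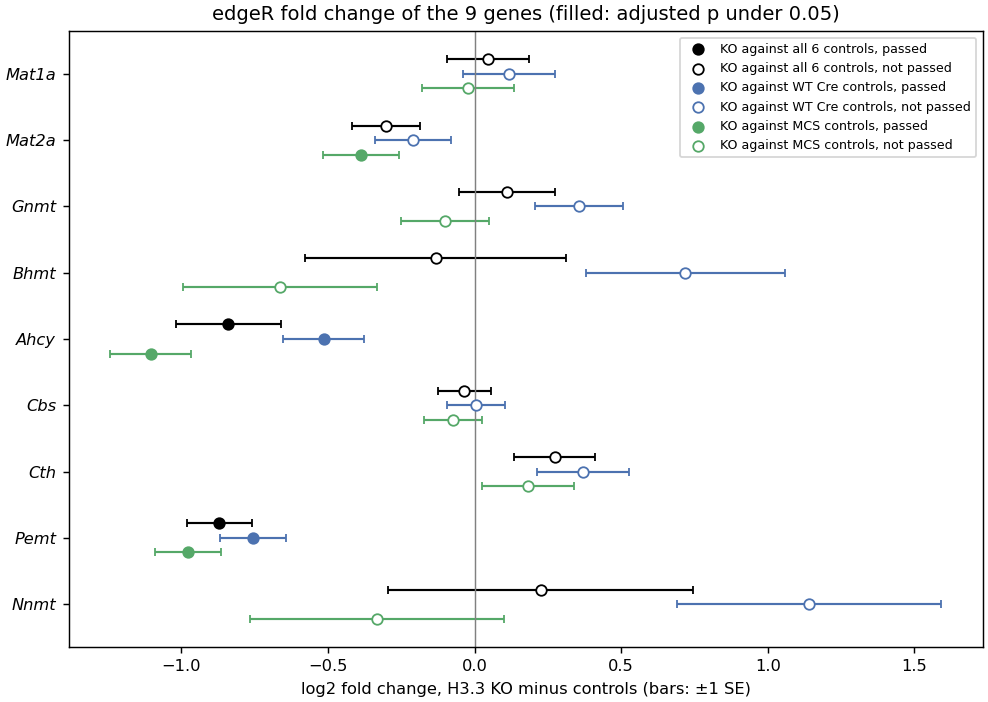
The log2 fold change of the 9 genes in H3.3 KO against all 6 controls, the 3 WT Cre and the 3 MCS controls, from edgeR, with bars of ± 1 SE and filled points where the adjusted p was under 0.05. Ahcy and Pemt are lower against every control set, Mat2a is filled against MCS alone (−0.39), and Bhmt changes sign between WT Cre (0.72) and MCS (−0.66).

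Each kind of control gave its own count. Against WT Cre 2 of 9 genes passed, both lower (Ahcy and Pemt), where 28.4% of all genes passed and 13.1% with lower values. The ranges did not overlap for these 2 genes in the lower direction (18.5% of all genes) and for Nnmt in the higher (17.4%). Against MCS 3 of 9 passed, all lower (Ahcy, Pemt and Mat2a), where 32.0% of all genes passed and 14.8% with lower values, and Ahcy alone was also lower by more than 1 on the log2 scale (5.54% of all genes). The ranges did not overlap for the same 3 genes (17.8% of all genes, lower). These comparisons share the KO livers. Between WT Cre and MCS none of the 9 genes passed with edgeR, where 0.927% of all genes passed. An unadjusted p under 0.05 (edgeR) was held by 4 of the 9, beside 2397 of all 22449 genes. DESeq2 called Bhmt, Ahcy and Nnmt, beside 651 of the 22449. All livers of the WT Cre group lay below all MCS livers for 5 of 9 genes, Gnmt, Bhmt, Ahcy, Pemt and Nnmt, as for 11.2% of all genes. Genotype and vector both differ between these groups and cannot be told apart.

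The other genes of the pathway were followed through 6 lists with 79 genes, all of which could be tested. In KO against all controls 14 were higher, 32 lower and 33 did not pass, with a median log2 fold change of −0.23, beside 19.7% higher and 16.6% lower among all genes, and a median of −0.0030. With scaling by library size alone 17 were higher and 23 lower, beside 25.1% higher and 9.68% lower among all genes. Against WT Cre 10 were higher and 26 lower (15.3% and 13.1% of all genes), and against MCS 13 were higher and 30 lower (17.3% and 14.8%). Between WT Cre and MCS 1 of the 79 passed. Of the genes named from these lists, Mthfd2, Adi1, Nmnat3 and Naprt overlap another gene on their own strand. Sardh, Shmt2, Ethe1, Enoph1, Paox, Chka, Chpt1, Etnk1, Slc44a1 and Aox3 overlap a gene on the other strand, so reads of all these genes may be shared.

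Of the 14 genes of the methionine cycle and of SAM use, 3 rose and 4 fell, beside 19.7% and 16.6% of all genes. The median of the list was −0.19. Creatine synthesis, a large user of SAM, showed both directions. Gatm, which makes guanidinoacetate, rose from 9.18 ± 2.91 to 21.4 ± 4.31 CPM (log2 1.22, adjusted p = 0.00123), while Gamt, which methylates it, fell from 172 ± 41.7 to 87.9 ± 47.3 CPM (−0.97, adjusted p = 0.0322), with KO 1 at 157 within the control range. Against WT Cre alone Gamt did not pass (−0.71, adjusted p = 0.153). Sardh, which returns the sarcosine made by the Gnmt enzyme to glycine, fell from 701 ± 88.1 to 359 ± 120 CPM (−0.96, adjusted p = 0.00153). Mat2b, the regulatory partner of the Mat2a enzyme, fell by 0.43 (adjusted p = 0.00387), and its KO livers (19.7 to 23.5 CPM) lay below the controls (25.3 to 32.97). Mettl16, an RNA methyltransferase that acts on the Mat2a transcript, rose by 0.36 (adjusted p = 0.00412), as did Ahcyl1, a relative of Ahcy, by 0.38 (adjusted p = 0.00715).

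The folate cycle carries the methyl groups that remake methionine. Of its 21 genes 13 fell, 1 rose and 7 did not pass, beside 16.6% lower and 19.7% higher among all genes. The median of the list was −0.54. Shmt2, which moves carbon from serine to folate in mitochondria, fell from 241 ± 35.7 to 134 ± 18.02 CPM (−0.85, adjusted p = 0.000391). Mthfd2l, a mitochondrial enzyme of the cycle, fell by 1.30 (adjusted p = 0.000636) at a low level, 0.842 ± 0.198 CPM in KO. The gene that rose was Mthfd2, the mitochondrial enzyme of growing cells, from 1.22 ± 0.216 to 2.35 ± 0.735 CPM (0.95, adjusted p = 0.00573).

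Of the 12 genes that handle the products of transsulfuration, 2 fell, 1 rose and 9 did not pass. Among all genes 16.6% fell and 19.7% rose. The median of the 12 genes was −0.20. Suox, which oxidizes sulfite to sulfate, had 152, 144 and 166 CPM in the WT Cre controls, 159, 150 and 153 in the MCS controls and 51.0, 41.0, 36.8 and 26.04 in KO. The KO livers stood far below all controls, and Suox fell by 1.99 (SE 0.156, adjusted p = 2.23e-06). Cdo1, which oxidizes cysteine, fell from 1879 ± 238 to 642 ± 151 CPM (−1.55, adjusted p = 2.22e-05), and Ethe1, which oxidizes persulfides, rose from 78.8 ± 15.1 to 125 ± 33.8 CPM (0.67, adjusted p = 0.0101), although not past the test against MCS (0.45, adjusted p = 0.0678).

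In polyamine synthesis and methionine salvage 5 of 12 genes rose and 3 fell, beside 19.7% and 16.6% of all genes. The median of the list was 0.20. Sat1 and Smox, which break polyamines down, rose by 1.33 (adjusted p = 0.000289) and 1.40 (adjusted p = 0.00171). Smox reached 15.8 CPM in KO 4 and 5.52 to 6.45 in the other KO livers. Sms, the spermine synthase, fell by 1.24 (adjusted p = 0.000399), from 4.45 ± 0.911 to 1.87 ± 0.345 CPM, and Paox, a polyamine oxidase, fell by 0.77 (adjusted p = 0.00356). In salvage, Enoph1 rose by 0.89 (adjusted p = 0.00304) and Adi1 fell by 0.63 (adjusted p = 0.0252), with KO 1 at 225 CPM among the controls and no call against WT Cre (−0.56, adjusted p = 0.101).

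Phosphatidylcholine is also made from choline, the route beside that of Pemt. In this list of 11 genes 3 rose and 5 fell, beside 19.7% and 16.6% of all genes, with a median of −0.39. Chka, the choline kinase that starts the route, had 34.6, 58.3 and 44.1 CPM in the WT Cre controls, 36.7, 46.1 and 57.3 in the MCS controls and 66.7, 108, 123 and 548 in KO. Every KO liver was above every control and KO 4 was far above the rest. The log2 fold change was 2.20 (SE 0.544, adjusted p = 0.0125) against all controls, and Chka did not pass against WT Cre (2.21, adjusted p = 0.0573) or MCS (2.18, adjusted p = 0.0550). Slc44a1, a choline transporter, rose by 0.51 (adjusted p = 0.00478). Chpt1, which carries out the last step, had 308, 322 and 341 CPM in the WT Cre controls, 292, 243 and 300.2 in the MCS controls and 224, 65.4, 49.6 and 41.2 in KO. KO 1 came close to the controls, and Chpt1 fell by 1.66 (SE 0.464, adjusted p = 0.0195) against all controls, but did not pass against MCS (−1.55, adjusted p = 0.0607). In the branch that makes the substrate of Pemt, Pcyt2 fell by 0.89 (adjusted p = 0.000310) and Etnk2 fell by 1.12 (adjusted p = 0.0179), while Etnk1 rose by 0.48 (adjusted p = 0.0144). Against WT Cre alone neither Etnk2 (−0.52, adjusted p = 0.0845, beside −1.53 and 0.000313 against MCS) nor Etnk1 (0.43, adjusted p = 0.0710) passed.

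Nnmt takes nicotinamide from the synthesis of NAD. Of the 9 genes for nicotinamide use 5 fell and 1 rose, beside 16.6% and 19.7% of all genes. The median of the list was −0.56. Aox3, an aldehyde oxidase, fell from 645 ± 104 to 252 ± 76.2 CPM (−1.36, adjusted p = 0.000187). Naprt, which makes NAD from nicotinic acid, fell by 0.64 (adjusted p = 0.00232), Nmnat3 fell by 0.90 (adjusted p = 0.0140), and Nadk, the NAD kinase, rose by 0.49 (adjusted p = 0.00341).

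**Figure D4:**
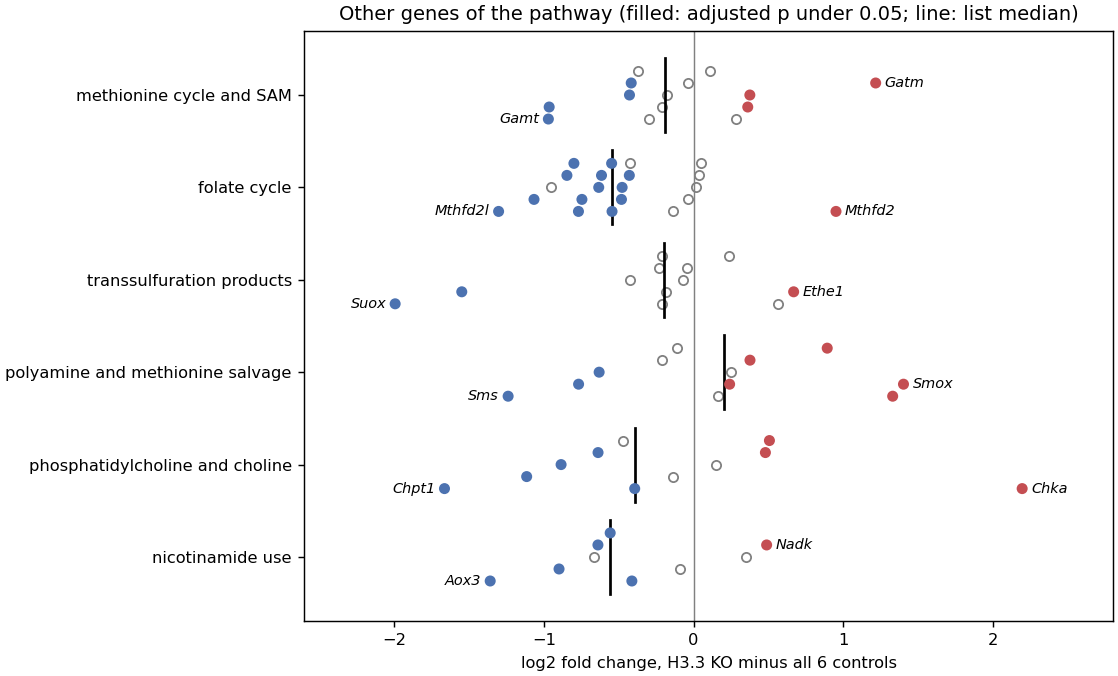
The log2 fold change in H3.3 KO against all 6 controls for 79 other genes of the pathway in 6 lists, with filled points for an adjusted p under 0.05 (blue lower, red higher), open points for genes that did not pass and a black line at the median of each list. The genes farthest out in each direction that passed are named, and the medians run from −0.56 for nicotinamide use to 0.20 for polyamines and salvage.

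Markers of some liver cell types differed between KO and the controls in the same libraries. Among all genes 19.7% rose and 16.6% fell. Of 9 hepatocyte markers 6 fell and none rose, and their summed level was 80091 to 95073 CPM in KO and 108300 to 160227 in the controls. Of 10 Kupffer cell and macrophage markers all rose (578.9 to 1257 CPM in KO, 248 to 468 in the controls), as did 9 of 10 stellate cell and fibroblast markers (505 to 811 and 221 to 282). Of 8 lymphoid markers 5 rose (4.56 to 17.2 and 2.40 to 5.77), of 8 endothelial markers 1 (245 to 422 and 235 to 301), and of 8 cholangiocyte markers 1 (72.1 to 90.8 and 51.0 to 82.2). The summed lymphoid, endothelial and cholangiocyte levels overlapped between KO and the controls. Of 8 cell cycle genes 6 rose (59.7 to 77.4 and 37.5 to 49.0). Tyms stands both in this list and in that of the folate cycle. Zone markers fell, 4 of 9 pericentral genes with 1 higher (2591 to 3562 and 5441 to 9662) and 7 of 8 periportal genes (5716 to 6543 and 7309 to 11349). No marker was at 0 in all libraries. MCS 3 had the highest summed hepatocyte, pericentral and periportal levels, and KO 4 the highest macrophage and stellate levels. Among the controls MCS 3 also had the highest macrophage, stellate and endothelial levels, and the lowest lymphoid and cholangiocyte levels. The part of these cell types in the values of the 9 genes was not tested.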

How the data were processed

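Livers of 10 mice were analysed from the deposited tables. Trimmed reads had been aligned to mm10 (STAR) and, by the authors' methods, counted per gene with HOMER, whereas the submitters' processing notes name STAR, HTSeq and Cufflinks without roles. The deposited read counts are whole numbers without normalization. The authors also deposited FPKM values, used only in alternatives, with blank cells (268042, none of the 9 genes) read as 0. Strand and multi-mapping settings were not given in the sources used here.

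Genes with at least 10 summed counts were kept (22449 of 33924). The main test was the quasi-likelihood test of edgeR 4.0.16 (R 4.3.3) with TMM scaling, 2 groups for KO against all controls and 3 groups otherwise, two-sided, with Benjamini-Hochberg adjustment over all genes. CPM used TMM-adjusted library sizes. Coordinates and exon lengths came from GENCODE M21, which held 54673 of 55421 identifiers. Alternatives were DESeq2 1.42.0, limma 3.58.1 on log2(FPKM + 1) and log2(FPKM + 0.1), other scalings and filters, a replicate block and each library left out. The edgeR step was tested on simulated counts, for KO against all controls and against WT Cre.

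The 9 genes and the lists were chosen with earlier results of these data known. Named were the 9 genes, H3f3a, H3f3b, in each list up to 3 genes with the largest change in each direction among those that passed, and the 3 genes most like Mat1a and Mat2a. A gene that this rule names in the folate list is not reported here.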

Additional observations from a re-analysis of the deposited data

Results flagged for a closer look

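The 9 genes and the Mat1a to Mat2a ratio were checked in the 4 KO livers and in the 6 pooled controls, 20 sets of values in all, for a library far from the others by Dixon's test at 95%, and 2 stood out, where chance gives about 1 in 20. KO 1 had the highest Pemt of the KO livers at 188 CPM, and its gap to the next liver was 0.931 of the whole range of the 4. MCS 3 had the highest Nnmt of the controls at 226 CPM, with a gap of 0.793 of the range of the 6. KO 1 also had the fewest counts (14998426) and was the KO liver nearest to the controls for Ahcy. Whether depth had a part in this was not tested.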

How the results depend on the processing

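For KO against all controls, Pemt and Ahcy kept their direction and their call in all 18 alternatives, with adjusted p from 3.04e-13 to 0.000815 for Pemt and from 0.000139 to 0.0145 for Ahcy (edgeR, DESeq2 or limma). The fall of Ahcy against MCS ran from −1.23 to −0.84. Scaling by library size alone shifted the median over all genes (log2) by 0.18 against all controls, 0.11 against WT Cre, 0.25 against MCS and 0.14 between the controls, and of the genes that passed against all controls 72.2% were then higher, beside 54.3%. It gave 0.23 for Mat1a, 0.15 for Gnmt and 0.18 for Cbs against MCS, 0.062 for Bhmt and 0.14 for Cbs against all controls, and 0.0051 for Mat1a and 0.063 for Cbs between WT Cre and MCS, all of opposite sign to the main value. Limma on FPKM with either pseudocount (1 or 0.1) also turned signs, to 0.285 and 0.286 for Mat1a, 0.176 with both for Gnmt, 0.401 and 0.402 for Cbs and 0.0926 and 0.0946 for Nnmt against MCS. It gave 0.1297 and 0.130 for Bhmt and 0.341 and 0.342 for Cbs against all controls, and 0.0467 and 0.0468 for Mat1a and 0.1196 and 0.120 for Cbs between the controls. The causes were not tested.

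The number of genes past both thresholds was 4199 (all controls), 3566 (WT Cre), 3926 (MCS) and 144 (WT Cre against MCS). On log2(FPKM + 1) it was 1278, 1131, 1379 and 95, and between the controls DESeq2 gave 314. With 1 library left out it ran from 3492 to 4710, 2743 to 4375, 3087 to 4726 and 66 to 259, the lowest without WT Cre 3 and the highest without KO 1 in the last. Left-out libraries turned the sign of Mat1a against MCS (−0.13 to 0.16) and between the controls (−0.28 to 0.042), Gnmt against all controls (−0.0026 to 0.19), Bhmt against all controls (−0.49 to 0.060), Cbs against WT Cre (−0.015 to 0.031), and Nnmt against all controls (−0.048 to 0.81) and MCS (−0.62 to 0.43). Among the 79 pathway genes the counts then ran from 12 to 15 higher and 25 to 39 lower.

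The difference in log2 ratio of Mat1a to Mat2a against all controls ran from 0.28 to 0.43 with 1 library left out (exact permutation p from 0.00794 to 0.0476). With FPKM + 1 and FPKM + 0.1 it was 0.50 and 0.51 against WT Cre and 0.63 and 0.65 against MCS, each at the smallest exact p, 0.0286. Between the controls it ran from −0.027 without WT Cre 1 to 0.15.

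Replicate numbers are shared between groups, but libraries of the same number correlated by only −0.122 to 0.203, so the numbers were not taken as pairs. With the replicate block, 221 genes passed both thresholds between the controls, Mat1a against MCS was 0.021, and the log2 ratio against all controls differed by 0.43 (exact permutation p = 0.0370, the smallest of 27) without KO 4, the KO liver with the lowest ratio, whose number no control shares and which adds nothing to the group differences in the block fits of genes either.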

Other observations

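Csad, which makes hypotaurine from the product of the Cdo1 enzyme, was the only gene of the 79 that passed between both kinds of control (edgeR, log2 1.79, adjusted p = 0.00219). It was chosen after its values were seen, and it overlaps Zfp740 on the other strand. Csad had 801, 860 and 754 CPM in the WT Cre controls, 258, 292 and 151 in the MCS controls and 929, 792, 731 and 615 in KO. All livers given Cre were above all livers given the vector without Cre, and KO against WT Cre gave −0.070 (adjusted p = 0.833).

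Over the 10 libraries and 13210 genes, the genes whose log2 CPM followed Mat1a most closely were Fbf1 (Pearson r = 0.906), Azin1 (0.877) and Nr1d2 (0.863), and those that followed Mat2a were Gm8326 (0.955), Jmy (0.946) and Epc2 (0.937). These are descriptions, since the same libraries and scaling underlie all genes.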
